A study of Mus musculus with 32 samples.

Results

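The wild-type (WT) early 2-cell embryos of the study are 8 single mouse embryos sequenced as 8 separate libraries (the series' design text gives 6 early replicates), and the data here describe how far these 8 differed from each other. Genes were kept where their mean over the 8 embryos was 2 FPKM (fragments per kilobase of gene, scaled to the reads of the library) or more, which left 5123 of the 54532 genes in the table. The spread of a gene is the standard deviation (SD) of its log2(FPKM + 1) over the 8 embryos. The series holds 32 libraries: 8 WT early 2-cell embryos, 6 early 2-cell embryos without maternal and zygotic Trp53 (MZ-KO), 6 WT late and 6 MZ-KO late 2-cell embryos, 3 WT eggs and 3 eggs from Trp53 knockout females. Eggs were in metaphase II, early embryos were taken 2 to 3 hours after cytokinesis, at 28 to 32 hours after the hCG injection that induced ovulation, and late embryos at 48 hours after it.

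All groups came from mice on a mixed background in which exons 2 to 10 of Trp53, the gene of the tumour suppressor p53, are flanked by loxP sites. The WT controls were Trp53 flox/flox animals with the exons in place, and the MZ-KO embryos came from knockout females mated to knockout males after germline deletion with Ddx4::Cre. Embryos were collected as zygotes and cultured in KSOM medium up to lysis. How many females or litters gave the 8 embryos is not given in the sources used here, so embryos that share a mother cannot be told from embryos that do not. The embryos are numbered 1 to 8 in the order of the table's columns, which is only a name.

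As background, the mouse embryo reaches the 2-cell stage largely on RNA that the egg stored, and it clears that RNA while its own genome comes on. The transcription factor DUX, made from Duxf3, is expressed briefly at the early 2-cell stage and is known to activate a group of 2-cell genes, among them the Zscan4, Tdpoz and Usp17-like families, Tcstv1 and many genes known only by clone names. Embryos caught a little earlier or later, or embryos that run faster or slower, would hold different mixtures of stored and new RNA, so the spread among same-stage embryos can be read for a common order.

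The 8 libraries rested on 7157000 to 20780000 reads, with embryo 8 the shallowest, and 6965 to 7990 genes reached 1 FPKM in each. Each of the 8 genes of the 2-cell marker list and of the 6 of the egg list reached 1 FPKM in at least 1 WT early embryo, but Zscan4c and Tcstv1 of the 2-cell list fell to 0.851 and 0.069 FPKM in their lowest embryos. None of 8 cumulus and granulosa markers reached 1 FPKM in any WT early embryo, Ptx3 was at 0 in all of them, and the list summed to 0.186 to 0.660 FPKM, against 0.25 to 0.644 FPKM in MZ-KO early embryos. Of 4 sperm markers, Prm2 alone passed 1 FPKM, at 1.70 FPKM at most, and of 4 blood markers Hba-a1 alone did, at 4.21 FPKM at most. Trp53 itself stood at 7.91, 9.29, 4.67, 8.41, 8.02, 4.50, 2.60 and 3.01 FPKM in WT early embryos 1 to 8, against 0.311 to 1.10 FPKM in the 6 MZ-KO early embryos. The lowest WT embryo was thus above the highest MZ-KO embryo. The deletion leaves the outer exons, whose reads the values still count.

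Embryo 3 stood apart. Its median correlation with the other embryos over the 5123 genes was 0.856, against 0.892 to 0.928 for the other 7. The first principal component held 35.5% of the variance and set embryo 3, at a score of 43.3, far from the rest, which lay between -25.7 and 11.02. The second held 21.1% and was led by embryo 8, at 33.7.

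Most genes varied little between the embryos. The median SD was 0.32 on the log2 scale, with the middle 50% of genes between 0.23 and 0.49 and the whole range from 0.06 to 2.43. It was 0.29 over the same genes without embryo 3. The spread that counting of reads alone would give had a median of 0.05, and the observed SD was a median of 6.74 times that value. Only 176 genes, 3.44%, had an SD under 2 times their counting SD. To compare genes of different level, each SD was also divided by the median SD of the genes nearest in mean level. This ratio, the adjusted spread, was 2 or more for 678 genes, 13.2% of the 5123. Of the 5123, 220 genes (4.29%) had a mean log2 level below 1.58, the log2 level of 2 FPKM, so their mean FPKM rests on their higher embryos. Their SD had a median of 0.86 and was 0.18 at the lowest, and 6 of them had an adjusted spread of 2 or more.

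**Figure D1:**
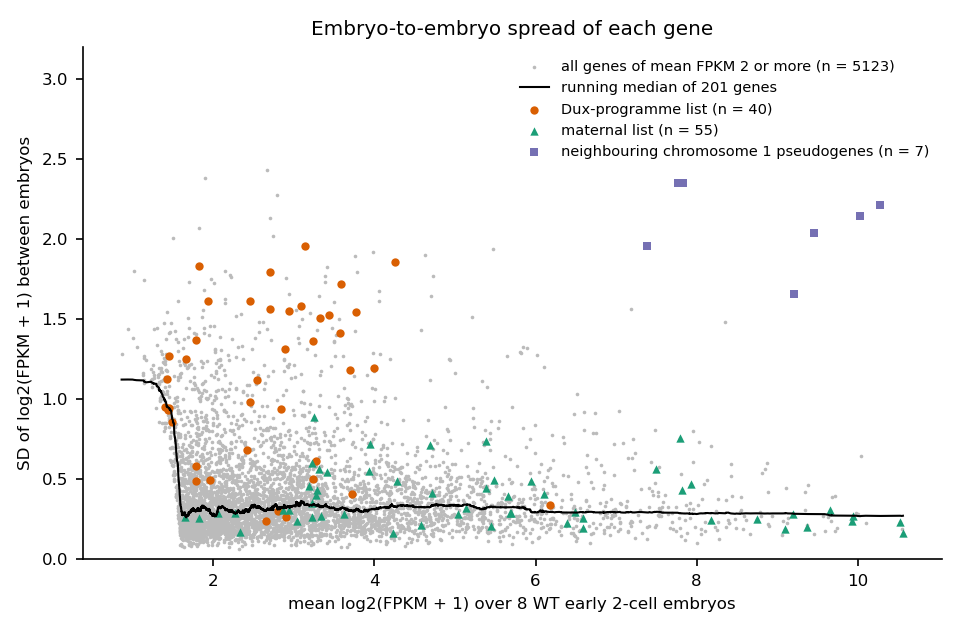
SD of log2(FPKM + 1) over the 8 WT early 2-cell embryos (vertical axis) against the mean log2(FPKM + 1) (horizontal axis), 1 point per gene for 5123 genes, with the 40 genes of the Dux and 2-cell list, 55 of the maternal list and 7 neighbouring pseudogenes of chromosome 1 marked. The line is the running median; the 40 genes of the list have a median SD of 1.19, against 0.32 for all genes.

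The genes of the Dux and 2-cell list varied more than most genes. Of its 51 listed genes, 40 reached the level of 2 FPKM, their median SD was 1.19, and 24 of them, 60%, had an adjusted spread of 2 or more, against 13.2% of all 5123 genes. Without embryo 3 the median SD of these 40 genes was 0.96, and in the 6 MZ-KO early embryos it was 0.85. Of the 40, 6 were among the genes with a mean log2 level below 1.58, and the other 34 had a median SD of 1.28, against 0.31 for all genes above that level. Zscan4c, a zinc-finger gene of the 2-cell stage on mm10 chr7:11005745-11010547, had 0.851, 5.77, 80.0, 3.07, 16.6, 26.4, 22.02 and 8.31 FPKM in WT early embryos 1 to 8, against 10.7, 7.09, 3.28, 21.96, 0.649 and 0.563 FPKM in MZ-KO early embryos 1 to 6. Embryos 1 and 4 were lowest and embryo 3 highest, and the groups overlapped. Its SD was 1.72 and its adjusted spread 5.41.

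Single copies of other families had similar low and high embryos. Zscan4f, a second member of the zinc-finger family, had 2.08, 7.84, 103, 5.14, 19.7, 18.5, 20.8 and 6.77 FPKM in WT early embryos 1 to 8. Tdpoz5, a gene of the TD and POZ domain family, had 0.508, 0.360, 23.7, 0.424, 4.18, 8.54, 7.48 and 0.542 FPKM. Usp17la, a deubiquitinase gene, had 0.826, 2.77, 18.1, 2.13, 6.13, 9.90, 9.19 and 3.19 FPKM. Embryo 3 was highest for all 3 genes, embryos 5, 6 and 7 came next, and embryos 1, 2, 4 and 8 were lower. Other copies went another way: Tdpoz4 had 4.57 FPKM in embryo 2 and 0.103 FPKM in embryo 6, Usp17lc had 12.1 FPKM in embryo 2 and 9.39 FPKM in embryo 5, and Usp17ld was highest in embryos 7 and 8, at 14.7 and 12.5 FPKM, against 11.6 FPKM in embryo 3. Gm2022, a clone-named 2-cell gene on chromosome 12, had 2.69, 11.005, 156, 2.99, 32.6, 33.97, 46.6 and 10.5 FPKM. Pramef25, of the PRAME-like family, kept to the same pattern more loosely, with 1.86, 2.99, 13.7, 0.850, 6.17, 8.00, 7.70 and 3.70 FPKM. Copies within these families are near-identical, so how reads were divided between them is uncertain, and the sum over a family is safer than a single copy.

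Summed over the 50 genes of the list found in the table, the level was 169, 282, 1161, 213, 459, 513, 567 and 263 FPKM in WT early embryos 1 to 8, against 400, 328, 285, 499, 224 and 225 FPKM in MZ-KO early embryos 1 to 6. The mean log2(FPKM + 1) over these genes, which gives each gene the same weight, was 1.31, 1.94, 3.54, 1.49, 2.56, 2.76, 3.02 and 1.96 in the WT early embryos and 1.31 to 2.67 in the MZ-KO early embryos. Embryo 3 lay above every other embryo of both early groups on both measures. The other 7 WT early embryos reached from below the lowest MZ-KO embryo in sum to above the highest.

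**Figure D2:**
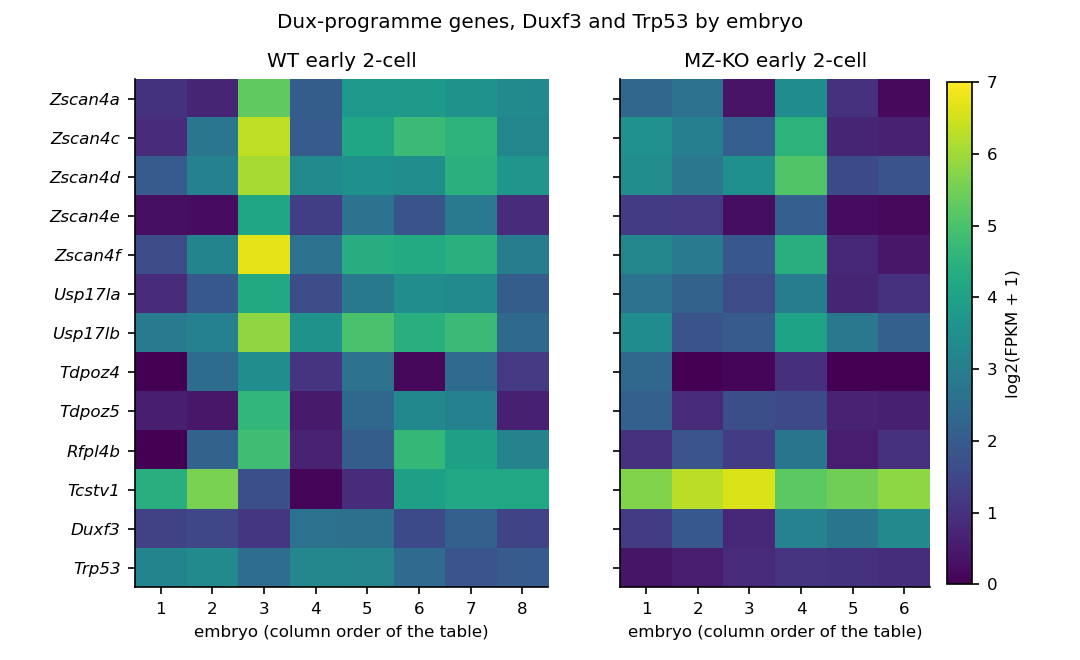
Level of 12 genes of the Dux and 2-cell list and of Trp53 (rows of the map) in each early 2-cell embryo (columns), with colour giving log2(FPKM + 1) and the 8 WT embryos left of the 6 MZ-KO embryos. Zscan4c runs from 0.851 FPKM in WT embryo 1 to 80.0 FPKM in WT embryo 3.

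Not every 2-cell gene followed this pattern. Duxf3, the source of DUX, had 1.54, 1.80, 1.15, 5.20, 4.97, 1.98, 3.4 and 1.70 FPKM in WT early embryos 1 to 8, against 1.34, 2.83, 0.764, 7.67, 5.54 and 8.81 FPKM in MZ-KO early embryos. It was lowest in embryo 3, where its target families were highest, and highest in embryo 4, where they were low. The order was not reversed throughout. Duxf3 was at 4.97 FPKM in embryo 5 and 1.54 FPKM in embryo 1, where the list summed to 459 and 169 FPKM. A relation of Duxf3 to the list was not tested. The adjusted spread of Duxf3 was 1.95. Tcstv1, a 2-cell-specific transcript, had 19.96, 47.2, 2.29, 0.069, 0.864, 14.6, 17.5 and 17.5 FPKM in the WT early embryos, against 36.6 to 97.2 FPKM in MZ-KO early embryos. It was low in embryos 3, 4 and 5 and at 14.6 FPKM or more in the other 5. Rfpl4b, a RING-finger gene that reached 67.4 to 332 FPKM in WT late embryos, had 0, 3.69, 28.2, 0.583, 3.15, 24.4, 14.9 and 7.72 FPKM in the WT early embryos.

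The promoter windows of genes of this programme were searched for GATTNAATC, the core of the DUX motif, which is its own reverse complement and was therefore read once for both strands. The windows reach from 250 bases before to 50 bases after the gene start, in the RefSeq annotation of GRCm38.p6. Of 269 genes in the largest co-varying group, described next, 56 had a window and 6 of these held the motif, 10.7%, against 7 of 3329 windows of the other genes kept, 0.21%, and 88 of 32851 windows of all genes, 0.268%. The 6 genes, Gm21293, Gm8764, Gm21304, Gm21312, Gm20765 and Gm4340, are clone-named neighbours on chromosome 10. Their windows are copies of each other: 3 of the other 5 were identical to that of Gm8764 over 300 of 300 bases, and those of Gm21312 and Gm4340 over 299, with the substitution G1C counted from the first base of the window. They therefore count as 1 sequence, not 6. The window of Gm8764 (chr10:104159756-104160055, + strand) is shown as the copy that holds the motif among genes that varied together, that of Zscan4c (chr7:11005495-11005794, + strand) as a variable gene of the same group without it, and that of Duxf3 (chr10:58233040-58233339, - strand) as the gene of the factor itself. The motif stands in capitals.
Gm8764: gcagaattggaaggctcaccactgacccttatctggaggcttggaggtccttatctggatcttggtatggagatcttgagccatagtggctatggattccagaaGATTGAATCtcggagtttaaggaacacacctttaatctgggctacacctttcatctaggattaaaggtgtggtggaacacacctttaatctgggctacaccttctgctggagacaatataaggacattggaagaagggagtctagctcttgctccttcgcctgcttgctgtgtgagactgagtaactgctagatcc
Zscan4c: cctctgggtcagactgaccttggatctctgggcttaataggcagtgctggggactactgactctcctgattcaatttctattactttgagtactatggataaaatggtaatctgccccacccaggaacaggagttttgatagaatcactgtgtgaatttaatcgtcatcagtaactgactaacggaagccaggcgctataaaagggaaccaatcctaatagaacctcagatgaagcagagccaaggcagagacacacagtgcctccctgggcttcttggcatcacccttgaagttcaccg
Duxf3: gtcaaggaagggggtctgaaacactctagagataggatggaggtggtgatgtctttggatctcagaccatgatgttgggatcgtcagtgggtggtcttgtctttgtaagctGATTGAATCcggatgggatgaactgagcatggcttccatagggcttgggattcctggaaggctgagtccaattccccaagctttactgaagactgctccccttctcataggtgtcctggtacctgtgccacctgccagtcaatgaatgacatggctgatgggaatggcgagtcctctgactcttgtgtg
Gm8764 itself had 1.21, 4.48, 23.8, 1.82, 9.43, 8.92, 16.6 and 5.95 FPKM in WT early embryos 1 to 8. Its low and high embryos were those of Zscan4c. The absence of a match in the Zscan4c window covers these 300 bases only.

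Clustering the 300 genes of largest adjusted spread by their correlation over the 8 embryos put 269 into 1 group. It held 87 protein-coding genes and 131 pseudogenes, and 75 of its genes overlap another gene and can share reads with it. Its genes had a median pairwise correlation of 0.464 over the WT early embryos, by which it was chosen, and of 0.248 over the 6 MZ-KO early embryos, which took no part in the choice. Over all genes kept the medians were 0.019 and 0.011, and over all 300 clustered genes they were 0.324 and 0.19. The mean log2 level of the group was 2.11, 2.77, 4.38, 2.37, 3.42, 3.50, 3.62 and 2.17 in WT early embryos 1 to 8, against 3.04, 2.86, 2.56, 3.35, 2.24 and 2.20 in MZ-KO early embryos 1 to 6. Of its genes, 148 had a correlation of 0.7 or more with this mean, 42 had 0.3 or less and 15 were below 0, Tsc2, Defb8 and Trav13-3 among them, so the group is not 1 pattern. It held 22 genes of the Dux and 2-cell list. The named genes closest to its mean were Gm2016, Zscan4f, Tdpoz5, Gm5662, Gm8300 and Gm2022; clone-named genes off the lists were not eligible to be named. A second group of 15 genes was low in embryo 6, and 12 of these overlap another gene. Another group of 10 genes included Tcstv1 and the pseudogene Frg2f4, and was low in embryos 3, 4 and 5. The last held 6 genes.

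Some genes of other classes were, like the largest group, highest in embryo 3. Mt1, a metallothionein that binds zinc and copper, had 2.55, 2.07, 55.1, 4.17, 6.12, 5.31, 7.65 and 1.11 FPKM in WT early embryos 1 to 8, against 818 to 1160 FPKM in WT late embryos. Rpl41, of the large ribosomal subunit, had 8.49, 10.8, 88.2, 10.2, 12.9, 7.91, 12.97 and 0.930 FPKM. Embryo 3 held several times the level of any other embryo for both. Rpl41 did not keep the order of the largest group over the others, since embryo 6, at 7.91 FPKM, lay below embryos 1, 2 and 4. Mt2, the second metallothionein of the stress list, had an adjusted spread of 3.62, and the other 6 genes of that list stayed under 2. Tceal8, of the transcription elongation factor A-like family, had the largest adjusted spread of the named protein-coding genes, 5.85, but another order of embryos: it had 0.309 FPKM in embryo 1 and 73.8, 49.3, 22.4, 14.7, 44.0, 73.0 and 21.6 FPKM in embryos 2 to 8.

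The stored maternal RNAs varied much less than the Dux and 2-cell genes. Of 60 listed maternal genes 55 were kept, and their median SD was 0.29. An adjusted spread of 2 or more was seen in 5 of them, 9.09%, against 13.2% of all genes. Among the 3283 protein-coding genes kept, the median SD was 0.28 and the share 6.88%, so the maternal list was not below these. The 5 maternal genes, Zar1l, Rgs2, Fbxw15, Fbxw24 and Plat, were all lowest in embryo 3. Rgs2, a regulator of G-protein signalling, had 375, 321, 68.0, 219, 233, 246, 305 and 182 FPKM in WT early embryos 1 to 8. None of 29 cell-cycle genes, none of 11 embryonic transcription factors and none of 6 apoptosis genes had an adjusted spread of 2 or more. The count was 1 of 15 mRNA decay genes (Pabpn1l), 1 of 18 nucleolar genes (Polr1c), 1 of 17 heat-shock genes (Hspa2) and 1 of 9 p53 targets (Cdkn1a). Among histone genes it was 5 of 12, namely H2afz, Hist1h4c, Hist1h4d, Hist1h2aa and Hist1h2ba. Of 15 ribosomal protein genes 3 passed.

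By annotation class, the share with an adjusted spread of 2 or more was 6.88% of 3283 protein-coding genes, 27.1% of 812 processed pseudogenes, 59.1% of 115 unprocessed pseudogenes and 56.3% of 119 miRNA genes. Values were divided by the gene's whole span, and 2560 of the 5123 genes overlap another gene. The miRNA genes Mir7658 and Gm23606 span 57 and 121 bases, and over such short spans a few reads make up several FPKM. How far this set the share of miRNA genes was not tested. Among the unprocessed pseudogenes are the 7 neighbours on chromosome 1 described next. The most stable named genes were Togaram1, which encodes a microtubule-binding protein of cilia, at 3.71 to 4.31 FPKM, Arpp19, an inhibitor of the phosphatase PP2A at entry into M phase, at 10.8 to 12.6 FPKM, and Gatad2b, a subunit of the NuRD complex, Akirin2, Top1 and Fkbp1a. Their adjusted spreads ran from 0.213 to 0.252. At the level limit, the genes just inside were Pdxp, Gm26969 and Gm28784, with SDs of 0.53, 0.53 and 0.27, and those just outside were Gm26904, Dmrtb1 and Gmfb, with SDs of 0.15, 0.30 and 0.27.

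A block of neighbouring genes gave some of the largest spreads with its own low and high embryos. It was picked out after its values were seen. The clustering put all 7 genes into the group of 269, with correlations of only 0.13 to 0.19 with that group's mean. The block consists of 7 neighbouring unprocessed pseudogenes (Gm28439, Gm10222, Gm28438, Gm28437, Gm10925, Gm28661 and Gm29216) within 4663 bases of mm10 chr1:24611535-24616197, on the minus strand. This stretch is known as a nuclear copy of mitochondrial DNA. Of the 10 largest adjusted spreads 5 belonged to it. The 7 genes summed to 10259, 12832, 16241, 9668, 7576, 2543, 834 and 307 FPKM in WT early embryos 1 to 8, so embryos 6, 7 and 8 lay below the other 5. The sums were 5447 to 10504 FPKM in the 6 MZ-KO early embryos, 20686 to 32121 FPKM in WT late embryos, 8625 to 15805 FPKM in WT eggs, and 6104, 943 and 1659 FPKM in the 3 knockout eggs. All 37 mitochondrial genes of the table were at 0 in every library. Whether reads of mitochondrial RNA were placed on these pseudogenes was not tested.

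**Figure D3:**
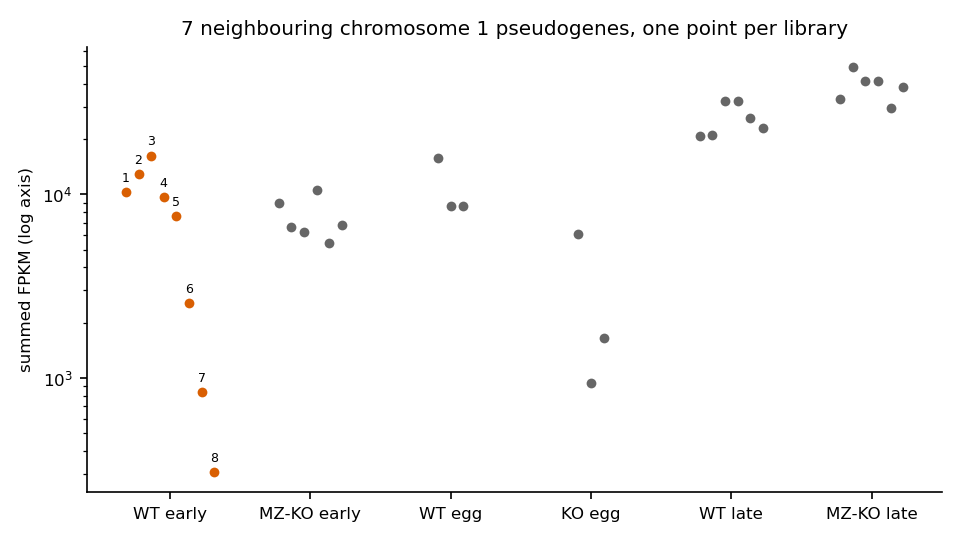
Summed FPKM (log axis) of the 7 neighbouring pseudogenes on chromosome 1 in every library, by group, 1 point per library. WT early embryos 6, 7 and 8 lie at 2543, 834 and 307 FPKM, below the 7576 FPKM or more of WT early embryos 1 to 5.

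Whether the variable genes order the embryos by progress was asked with 3 measures whose direction of change came from other groups. The level limit of 2 FPKM over the 8 embryos still bore on which genes entered, so genes that are high in a few embryos could enter through these. Genes cleared between WT egg and WT late embryo, and embryonic genes that come on between them, were taken from those groups with limma (log2 difference of at least 2 in size, adjusted p under 0.05). Of the genes kept, 897 were cleared genes and 825 embryonic genes. An embryo's position on each axis is 0 at the mean of the WT eggs and 1 at the mean of the WT late embryos. The early-peaking genes, 533 of those kept, were higher in MZ-KO early embryos than in both knockout eggs and MZ-KO late embryos, by at least 1 on the log2 scale. Their score is the mean log2 level.

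Embryonic genes varied most and cleared genes least of the 3 sets. Among embryonic genes the median SD was 0.48 and 31.3% had an adjusted spread of 2 or more. It was 0.37 and 18.8% among early-peaking genes, and 0.32 and 8.92% among cleared genes, against 0.29 and 8.74% among the 2942 genes in none of the sets. Without embryo 3 the medians were 0.44 for embryonic, 0.33 for early-peaking and 0.27 for cleared genes. Of the 269 genes of the large co-varying group, 134 (49.8%) were embryonic, 60 (22.3%) early-peaking and 15 (5.58%) cleared. The shares were 16.1%, 10.4% and 17.5% among all 5123 genes. Among the 678 genes with an adjusted spread of 2 or more, they were already 38.1%, 14.7% and 11.8%.

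The cleared-gene position was 0.139, 0.135, 0.258, 0.158, 0.167, 0.142, 0.154 and 0.181 in WT early embryos 1 to 8. All 8 lay much nearer to the eggs than to the late embryos, with embryo 3 furthest along and embryo 8 next. The embryonic-gene position was 0.185, 0.251, 0.455, 0.1704, 0.2999, 0.333, 0.340 and 0.208. Embryo 3 again led, but embryos 7, 6 and 5 came next and embryo 4 was last. The early-peaking score was 3.42, 3.46, 3.49, 3.42, 3.75, 3.81, 3.81 and 3.55. Here embryos 5, 6 and 7 stood together at the top, and embryo 3 lay among the lower 5.

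**Figure D4:**
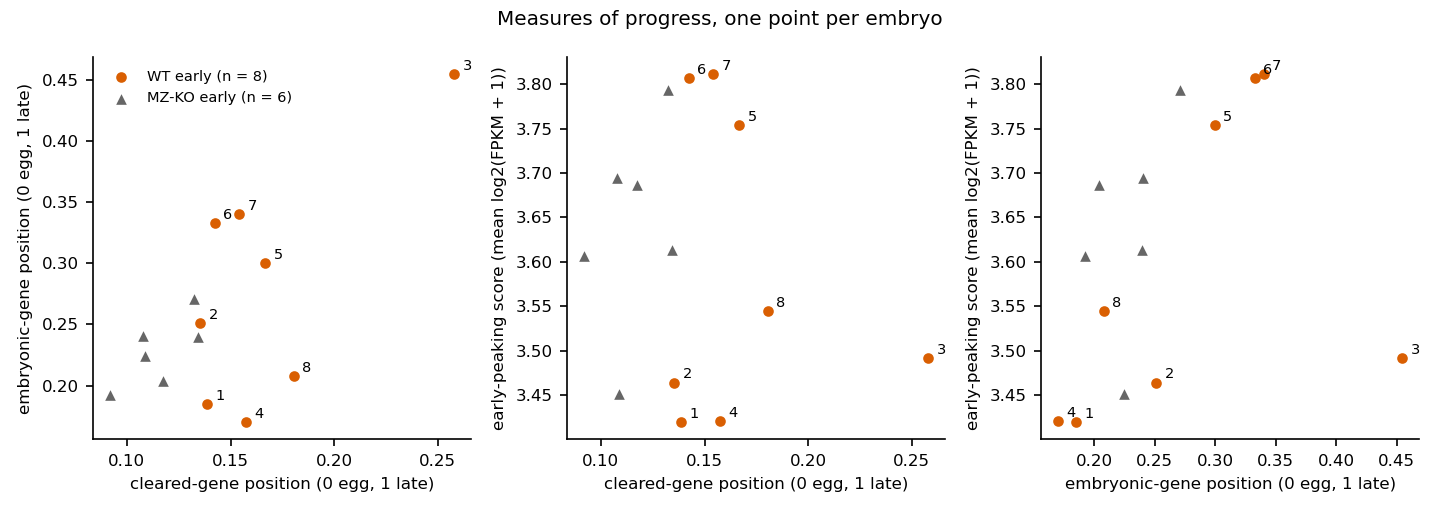
The 3 progress measures plotted against each other for the 8 numbered WT early embryos and the 6 MZ-KO early embryos: positions between the WT egg mean (0) and the WT late mean (1) on cleared and embryonic genes, and the early-peaking score as mean log2(FPKM + 1). WT embryo 3 lies furthest on both positions, at 0.258 and 0.455, and at 3.49 on the early-peaking score.

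Over all 8 embryos no pair of measures passed its test. Cleared and embryonic positions had Pearson r = 0.653 (exact permutation p = 0.0807, adjusted over 3 pairs 0.242) and Spearman rho = 0.286 (p = 0.501, by the same permutation test), and r was 0.17 without embryos 3 and 8, the 2 farthest from the median cleared position. Cleared position and early-peaking score had r = -0.152 (exact permutation p = 0.826, adjusted 0.826) and rho = 0.214, with r = 0.386 without the same 2 embryos. Embryonic position and early-peaking score had r = 0.453 (exact permutation p = 0.248, adjusted 0.372) and rho = 0.690 (exact permutation p = 0.0694, adjusted 0.208), with r = 0.928 without embryos 3 and 4. The smallest p these permutations can give is 5e-05.

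Leaving out embryo 3 alone changed 1 of the 3 relations to a pass. Over the other 7 embryos, embryonic position and early-peaking score had r = 0.935 (exact permutation p = 0.0147, adjusted 0.044) and rho = 0.929 (exact permutation p = 0.00675, adjusted 0.0202), and r was 0.894 after a further 2 embryos were left out. Embryo 3 was left out after its values were seen. Within the runs of columns described further on, r was 0.968 with an adjusted p of 0.125, by an exact permutation whose smallest unadjusted p is 0.0417. The cleared position followed neither, with r = -0.128 against the embryonic position and 0.154 against the early-peaking score (exact permutation p = 0.782 and 0.732). The sets share 23 genes between embryonic and early-peaking and 51 between cleared and early-peaking. With the 3 sets taken without the level limit over the WT early embryos (954 cleared, 2318 embryonic and 592 early-peaking genes), the correlations over 8 embryos were 0.733, -0.138 and 0.353, and that of embryonic position and early-peaking score was 0.932 without embryo 3 (exact permutation p = 0.0135, adjusted 0.0405). With each gene kept only where it belongs to 1 set, the correlations over 8 embryos were 0.673, -0.139 and 0.400 for the 3 pairs in the order above. In the 6 MZ-KO early embryos, the correlations were 0.729, 0.412 and 0.470 (exact permutation p = 0.0986, 0.433 and 0.324).

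As a group, the WT early embryos lay further along the cleared-gene axis than the MZ-KO early embryos, at 0.167 ± 0.040 (SD, n = 8) against 0.116 ± 0.016 (SD, n = 6). The difference was 0.0512 (exact two-sided permutation p = 0.002, adjusted over 3 measures 0.006), and 0.0382 without embryo 3 (exact permutation p = 0.0012, adjusted 0.0036). This test was added after the positions were seen. It permuted embryos freely across the column runs described further on. Each run holds embryos of a single genotype, so a difference between genotypes cannot be told apart from one between runs. The axis was built from WT eggs and WT late embryos, which set its ends. MZ-KO late embryos lay at a mean of 0.8585 on it, with single embryos at 0.7279 to 0.9435. The early groups were not compared on an axis built from the knockout groups. On the embryonic-gene axis the WT early and MZ-KO early embryos were at 0.280 ± 0.096 and 0.229 ± 0.028 (exact permutation p = 0.2344, adjusted 0.3516).

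No gene outside the cleared set passed a test of its level against the cleared-gene position with limma and Benjamini-Hochberg adjustment, 0 of 4226 genes (0%), although 660 had an unadjusted p under 0.05. The 6 named genes of smallest p had adjusted p from 0.151 to 0.152. Rfc3, a subunit of the clamp loader of DNA replication, had 11.8, 12.7, 2.47, 8.25, 9.78, 10.7, 10.4 and 10.7 FPKM in embryos 1 to 8. Fundc1, a receptor for removal of mitochondria, had 1.17, 2.20, 14.6, 1.91, 2.92, 2.31, 2.81 and 1.58 FPKM. In both, embryo 3 stood alone and the other 7 were close together. The same held for Sbds, of ribosome maturation, at 8.04 FPKM in embryo 3 and 16.8 to 24.9 FPKM in the others, and for Ndufs8, of respiratory complex I, at 7.43 FPKM against 1.60 to 2.45 FPKM. Without embryo 8 there were 9 called genes.

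Against the embryonic-gene position, 16 of 4298 genes outside the embryonic set passed (0.372%), 15 higher (0.349%) and 1 lower (0.0233%), and 506 had an unadjusted p under 0.05. Per SD of the position, Cypt2, a gene otherwise known from sperm heads, was higher by 1.34 on the log2 scale (SE 0.16, adjusted p = 0.0128), Usp17la by 1.06 (SE 0.13, adjusted p = 0.0128) and Cdkn1a, the p53 target that encodes the cell-cycle inhibitor p21, by 0.77 (SE 0.10, adjusted p = 0.0128). Cdkn1a had 1.80, 2.46, 13.99, 1.52, 3.12, 4.54, 3.84 and 2.42 FPKM in WT early embryos 1 to 8, against 0.666 to 3.39 FPKM in MZ-KO early embryos. The splicing factor gene Srsf7 was higher by 0.68 (SE 0.10, adjusted p = 0.0345). Tacc3, of the mitotic spindle, was the 1 lower gene, with a coefficient of -0.70 (SE 0.11, adjusted p = 0.0381), with 27.8, 11.5, 4.47, 25.3, 12.7, 10.3, 12.4 and 15.4 FPKM. The count was 0 without embryo 3, 2 without embryo 4, 3 without embryo 1, 8 without embryo 7 and 27 without embryo 8. Usp17lb, Usp17lc and Usp17ld, copies of the family of Usp17la, are embryonic genes, and how reads were divided between them is uncertain.

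The fit on the embryonic-gene position leaves out the embryonic set, so each list is counted without its embryonic genes. Those tested were 10 of 18 nucleolar, 54 of 55 maternal, 23 of 29 cell-cycle and 12 of 40 Dux and 2-cell genes kept. Of 11 embryonic transcription factors 9 were tested. The sign of the coefficient was positive for 0 of 10 nucleolar genes, with a median of -0.20, for 9 of 54 maternal and for 8 of 23 cell-cycle genes. It was positive for 7 of 12 Dux and 2-cell genes and for 7 of 9 embryonic transcription factors, against 1988 of all 4298 genes. Without embryo 3 it was positive for 1 of 10 nucleolar genes, 31 of 54 maternal genes, 7 of 23 cell-cycle genes, 11 of 11 Dux and 2-cell genes and 9 of 9 embryonic transcription factors, against 2473 of 4292 genes. Negative signs thus prevailed among the nucleolar genes tested in both fits, and among the maternal genes tested only with embryo 3 in. They were also the more common among the cell-cycle genes in both fits. With embryo 3 in, however, they were the more common over all genes too, and no cell-cycle gene passed. No nucleolar gene passed the test, and the lowest limma adjusted p among them was 0.141, for Nop56, of the box C/D particles that methylate ribosomal RNA.

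Some genes with separate levels divided the embryos along their columns. Genes were called split where the largest gap between neighbouring embryos in sorted log2(FPKM + 1) was 2 or more and at least 50% of the range, with 2 or more embryos on each side. There were 14 such genes, and 10 of them separated embryos along the runs 1 and 2, 3 to 5, and 6 to 8 of the table's columns. With a gap of 1, there were 37 genes, of which 20 did so. The labels give no batch, and these runs were seen in the data. They were picked from the same split genes, so the counts of 10 and 20 describe the runs and are no test of them. With the progress measures centred by run and embryos permuted within runs only, which was added after the runs were seen, r was 0.61 for cleared and embryonic positions, -0.375 for cleared position and early-peaking score and 0.413 for embryonic position and early-peaking score (exact permutation p = 0.5, 0.625 and 0.458; the smallest possible is 0.014). Without embryo 3, the first was -0.533 and the second -0.458 (exact permutation p = 0.417 for both). The last was then 0.968, with an exact permutation p of 0.0417, the smallest that 24 arrangements can give, and 0.125 adjusted over 3 pairs. The Dux and 2-cell sums differed inside each run: 169 and 282 FPKM, then 1161, 213 and 459 FPKM, then 513, 567 and 263 FPKM.

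The genes that were low in embryos 6 to 8 included Tsc2, which encodes tuberin, an inhibitor of mTORC1. Tsc2 (chr17:24595816-24632630, minus strand, overlapping 1 other gene) had 8.69, 5.01, 6.84, 6.29, 10.2, 0.328, 0.285 and 0.053 FPKM in WT early embryos 1 to 8, against 4.16 to 5.83 FPKM in MZ-KO early embryos and 0.906 to 1.62 FPKM in WT eggs. Rpa3, a subunit of the single-strand DNA-binding protein RPA, had 27.3, 33.2, 24.4, 22.7, 23.4, 7.78, 8.61 and 7.28 FPKM. Gpn2, a GTPase gene, had 12.6, 11.99, 11.4, 12.2, 14.6, 4.44, 3.72 and 2.03 FPKM. These genes were picked by the rule for split genes, which sets embryos 6 to 8 apart from the other 5, so their separation is no further result. Defb8, a defensin gene, was at 0 in embryos 6, 7 and 8 and at 3.98 to 6.93 FPKM in the others.

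Other genes split the embryos elsewhere. AA792892 had 0.369 to 0.505 FPKM in embryos 1 to 5 and 7.16, 6.11 and 7.44 FPKM in embryos 6, 7 and 8, the reverse of Tsc2. B4galt4, a galactosyltransferase gene, had 0.732 and 0.544 FPKM in embryos 1 and 2 and 6.71 to 9.56 FPKM in the other 6. The T-cell receptor segment Trav13-3 had 22.8, 32.9, 10.6, 19.5, 21.4, 0, 0.203 and 0 FPKM in WT early embryos. It was at 0 in the 3 WT eggs, and at 33.9, 19.5 and 10.6 FPKM in the 3 knockout-labelled eggs. The MZ-KO early embryos showed the like: 16 genes were split at a gap of 2, of which 8 separated embryos 1 to 3 from 4 to 6. With a gap of 1, 85 genes were split, of which 34 did so and the rest divided the embryos otherwise. The MZ-KO runs were likewise seen in the data.

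**Figure D5:**
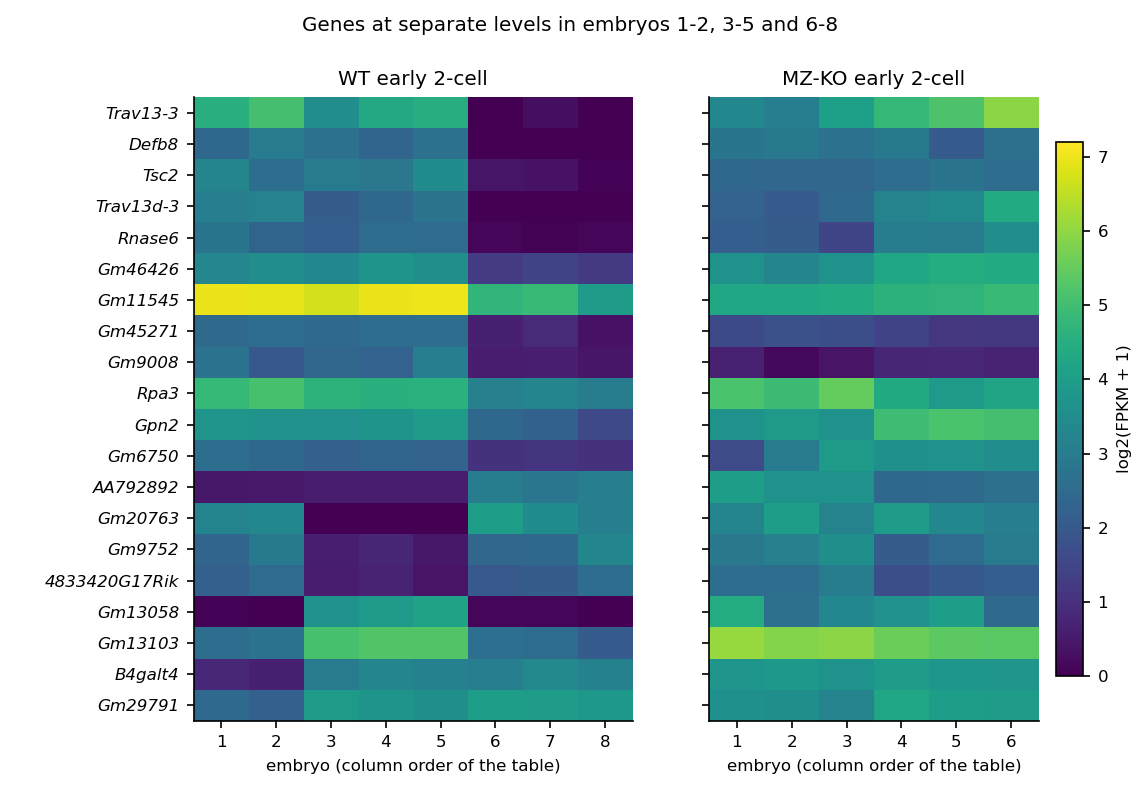
Level of the 20 genes split along the column runs at a gap of 1 in each early embryo, with colour giving log2(FPKM + 1), WT embryos 1 to 8 left of MZ-KO embryos 1 to 6. Tsc2 falls below 0.33 FPKM in WT embryos 6 to 8 and stays at 5.01 FPKM or more in WT embryos 1 to 5.

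Set beside the other groups, the WT early embryos did not stand out in overall spread. Over the genes kept, the median SD was 0.32 in WT early embryos, against 0.30 in MZ-KO early, 0.36 in WT late and 0.36 in MZ-KO late embryos, 0.26 in WT eggs and 0.24 in knockout eggs. These SDs rest on 8, 6 or 3 libraries, over genes kept by their WT early level. Over genes of 2 FPKM or more in the group itself, the median was 0.417 in WT late and 0.392 in MZ-KO late embryos. The root of the mean variance over the genes kept was 0.518 in WT early, 0.461 in MZ-KO early, 0.51 in WT late and 0.521 in MZ-KO late embryos. The SD was larger in WT early than in MZ-KO early embryos for 2696 of 4730 genes with 2 FPKM or more in both (57.0%), with a median ratio of 1.09. An embryo's root mean square distance from the rest of its group was 0.50 ± 0.10 in WT early embryos (SD, n = 8) and 0.46 ± 0.04 in MZ-KO early embryos (SD, n = 6), with an exact permutation p = 0.4389, and the difference of 0.0368 shrank to 0.0062 without embryo 3 (exact permutation p = 0.8584). The distances of embryos 3 and 8, 0.69 and 0.61, were above every MZ-KO distance, of which the highest was 0.50. Across the 4730 genes the adjusted spreads of both early groups had a Spearman rho of 0.556, a description over genes, which are not replicates. Among these 4730 genes, 578 had an adjusted spread of 2 or more in WT early embryos (12.2%) and 594 in MZ-KO early embryos (12.6%). They shared 272, which is 47.1% of the WT early and 45.8% of the MZ-KO early ones.

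Gene by gene, limma on the absolute deviations from the group mean called 20 of 5163 genes (0.387%) between WT early and MZ-KO early embryos, 3 with more spread in WT (0.0581%) and 17 with less (0.329%). The 3 were Tsc2 (difference in deviation 1.25 on the log2 scale, SE 0.29, adjusted p = 0.0219), B4galt4 (0.92, SE 0.23, adjusted p = 0.0424) and Gm28439 of the chromosome 1 block (adjusted p = 0.0424). Tsc2 and Gm28439 were low in WT embryos 6 to 8 and B4galt4 in embryos 1 and 2. The fit took embryos as independent, so spread between embryos cannot be told apart from steps between column runs in these 3. Those with less included Junb, an AP-1 subunit, with 0.013 to 1.31 FPKM in the WT early embryos and 6.07, 9.89, 11.1, 0.322, 0 and 0.445 FPKM in MZ-KO early embryos 1 to 6 (-1.32, adjusted p = 0.0138). Ugcg, of glucosylceramide synthesis, had 2.87 to 4.31 FPKM in WT early embryos, against 0.698, 0.764, 0.460, 3.39, 4.36 and 4.12 FPKM in MZ-KO early embryos. Gsto2, a glutathione transferase gene, had 2.43 to 6.95 FPKM, against 0.009, 0.081, 0.005, 5.21, 3.76 and 4.89 FPKM. In these 3 genes the levels of MZ-KO embryos 1 to 3 did not overlap those of embryos 4 to 6. The count was 0 without WT embryo 6, 3 without embryo 7, 6 without embryo 2, 7 without embryo 1, 9 without embryo 4 and 8 to 11 without any 1 MZ-KO embryo. It was also 0 with deviations from the group median, and 494 genes had an unadjusted p under 0.05.

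Against WT late embryos, 348 of 6428 genes were called (5.41%), 90 with more spread in WT early (1.4%) and 258 with less (4.01%), but most of these genes were expressed at 1 stage only. Of the 90, 72 were below 0.5 FPKM in the late embryos, and of the 258, 151 were below 0.5 FPKM in the early embryos. Only 16 and 82 of them had 2 FPKM or more in both. Tcl1b4, of the oocyte-expressed Tcl1 family, had 140 to 240 FPKM in the WT early embryos and 4.81 to 76.5 FPKM in WT late embryos. Against the 3 WT eggs, 20 of 5058 genes were called (0.395%), all with less spread in the embryos (0.395%). Taf6, a subunit of the general factor TFIID, had 6.51 to 9.12 FPKM in the 8 WT early embryos, against 2.67 to 17.5 FPKM in the 3 eggs (difference in deviation -0.90, adjusted p = 0.00725). With 3 eggs this count moved with single libraries, from 3 without egg 1 to 381 without egg 2 and 295 without egg 3. Without single WT early embryos it was 3 to 6 for embryos 1, 4, 5, 6 and 8, 13 for embryo 7 and 58 for embryo 3.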

How the data were processed

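RNA from single eggs and 2-cell embryos was made into SMART-seq v4 libraries from 5 uL of lysis buffer with 15 amplification cycles and Tn5 tagmentation, per the labels' protocols. The authors deposited 1 table of FPKM values per gene and library. The build mm10 and TopHat2, DESeq and DESeq2 are named in the submitters' processing notes, with no version or role. In each library over 99% of low values of short genes were whole multiples of 1 read within a tolerance of 0.1 read, which gave the read totals printed. The size of these steps fits a division by the gene's whole span, introns included; whether counting used strand is not given in the sources used here, so overlapping genes may share reads. Of 54532 gene IDs, 54495 matched the GENCODE annotation used for spans.

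Values were analysed as log2(FPKM + 1) with a pseudocount of 1. Spread was described by the SD. Group comparisons used limma 3.58.1 in R 4.3.3 (trend and robust) with Benjamini-Hochberg adjustment over all genes tested and a threshold of 0.05. They also used exact permutation tests over all arrangements, computed with numpy 2.4.6. Coefficients on position are per SD of the position. Adjusted spread is the SD over the running median of the genes nearest in mean level. The modules come from average linkage of 1 minus Pearson r, with 4 clusters. Fits were tested on simulated data. Named genes were, without clone-based symbols unless on a list, the 12 protein-coding genes of largest and the 6 of smallest adjusted spread, the 6 closest to each module mean, up to 6 called genes in each direction of each fit (3 in each direction of smallest p where none was called), the 12 split genes of largest gap, the listed genes in the top 5% of adjusted spread, and Trp53 and Duxf3. Genes outside this rule are named from counts of 5 or fewer or after their values were seen. The embryos, the gene lists and the tests were chosen with earlier results of these data known. No label says that libraries of 1 group came from separate litters, so p-values measure the spread between these libraries. Counting error covers read sampling only, since reads from amplified cDNA are not independent molecules.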

Additional observations from a re-analysis of the deposited data

Results flagged for a closer look

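Dixon's ratio, the gap between the highest or lowest embryo and its nearest neighbour as a share of the group's range, was taken for 15 measures of the libraries and 66 named genes. In groups of 8 the 95% critical value is 0.526, and chance passes about 1 in 20 groups. It was passed by 12, of which 9 fell on WT early embryo 3. Embryo 3 was highest for the cleared-gene position (0.631), Fundc1 (0.699), Ndufs8 (0.760), Cdkn1a (0.558) and Mt1 (0.570). It was lowest for Rfc3 (0.716), Cisd1 (0.611), Sbds (0.645) and Zfp961 (0.534). Fundc1, Ndufs8, Rfc3, Cisd1 and Sbds had been named for small p-values against the cleared-gene position, on which embryo 3 is itself the extreme, so their ratios and the position's are not separate pieces of evidence. Cdkn1a was named for following the embryonic-gene position, which embryo 3 also leads, and Mt1 for its large spread, so the count of 9 is partly set by how the genes were chosen. Embryo 1 was lowest for Tceal8 (0.614). Embryo 5 was highest for Gatad2b (0.533) and lowest for Top1 (0.606), both among the least variable genes.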

How the results depend on the processing

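No paired analysis was possible because the columns carry no replicate numbers. The median SD was 0.377 with a pseudocount of 0.1 and 0.286 to 0.329 when single embryos were left out. Genes of adjusted spread 2 or more numbered 369 at a level limit of 5 FPKM, 1687 at 0.5 FPKM and 652 to 724 with single embryos left out, where the share of the first component was 31.9% to 43.1%. Split genes numbered 57 with a pseudocount of 0.1, 7 at 5 FPKM, 37 at a gap of 1 and 13 to 25 with single embryos left out (25 without embryo 6). Genes called against the cleared-gene position numbered 1783 with no level filter, 16 with the embryonic-gene position and 25 with the first component of the cleared genes in its place, and 0 to 9 with single embryos left out; those called against the embryonic-gene position numbered 0 to 27. The gap of 1, the embryos left out for the embryonic-gene position, the sets without shared genes or without the level limit, the values within column runs and the test of distances were chosen after seeing the data. Spread differences from MZ-KO early embryos numbered 6 at 5 FPKM, 3403 with no filter, 0 with deviations from the median and 0 to 25 with single libraries left out. From WT late embryos they numbered 599 with a pseudocount of 0.1, 121 at 5 FPKM, 10179 with no filter, 40 with median deviations and 278 to 503 with single libraries left out. From WT eggs they numbered 36 with median-ratio scaling, 118 with a pseudocount of 0.1, 13 at 5 FPKM, 755 with no filter, 0 with median deviations and 3 to 381 with single libraries left out. Without a filter, genes at or near 0 enter the fits; for the other settings the cause was not tested. Over single embryos left out, r ran from -0.128 to 0.750 for cleared and embryonic positions, from -0.293 to 0.154 for cleared position and early-peaking score, and from 0.320 to 0.935 for embryonic position and early-peaking score. The cleared position and early-peaking score had r = 0.099 with median-ratio scaling in WT and -0.022 in MZ-KO early embryos with the axis from knockout eggs and MZ-KO late embryos. Without embryo 3, r of cleared and embryonic positions was -0.096 with no level limit and -0.533 within runs, that of cleared position and early-peaking score 0.174 with no level limit, and that of embryonic position and early-peaking score 0.932 with no level limit. With single libraries left out, the spread differences from WT eggs ran from -1.06 to 0.011 for Ddx28, from -0.77 to 0.049 for Nlrp9a and from -0.57 to 0.006 for Fbxo33, reversed without WT egg 1. Of the other values of named genes, 637 adjusted spreads stayed within their limits and 25 moved, and 199 spread differences no longer passed, against 242 unchanged in call. Counting error limits embryo 8 most, at 7157000 reads.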
